A study of Mus musculus with 6 samples.

Results

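Delta cells are the somatostatin-secreting cells of the pancreatic islet. Somatostatin acts through Gi-coupled receptors of the Sstr family and restrains insulin and glucagon release from neighbouring cells. Delta cells in turn carry receptors through which ghrelin, urocortin 3 and leptin can reach them, and Hhex is the transcription factor known to be needed for their differentiation. The retinol carrier gene Rbp4 is a familiar delta cell transcript that hepatocytes also make in quantity.

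The 9 genes described here were Sst, its partners in the delta cell programme Hhex and Rbp4, the hormone receptor genes Ghsr, Lepr and Crhr2, and the somatostatin receptor genes Sstr1, Sstr2 and Sstr3. They were taken by symbol from tables of 54735 genes, and all 9 were present. They were chosen by their role in delta cells with the counts of these 6 libraries known, a difference between the genotypes in Sst, Hhex and Rbp4 having been seen. Their levels and differences between the genotypes are therefore a description, and no p-value is given for any of the 9.

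RNA came from whole pancreas of mouse embryos at stage e16.5, on a background mixed from C57Bl6 and 129SV. Of 6 libraries, 3 came from embryos with Neurog3:cre alone (control 1 to 3) and 3 from embryos with Neurog3:cre and RARdnfl/fl (RARdn 1 to 3). The cre driver was thus shared by both groups, and no library without it was analysed here. The letters RARdn usually stand for a dominant-negative retinoic acid receptor, which the labels do not spell out. The title of the series places the question in retinoic acid signalling within endocrine progenitors and the kinds of islet cell they form. Neurog3 is the gene of endocrine progenitors, so cre acts in a small part of this tissue while RNA was read from all of it. Fewer cells of a type and less RNA per cell cannot be told apart in such bulk samples. Nothing in the labels ties embryos to a litter or a day or tells a single embryo from a pool, so p-values measure only the spread between these samples.

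Counts in genes were 35256531 to 52015498 per library, and levels are CPM, counts scaled to a total of 1000000 counts in genes. 3 counts, taken as the floor below which nothing is read, corresponded to 0.0577 to 0.0851 CPM. Markers of acinar, duct, mesenchymal, endothelial and endocrine cells were present in every library, with summed acinar markers at 102300 to 110200 CPM in the controls. RARdn 1 stood apart at 39390 CPM for the same 12 acinar genes, where RARdn 2 and 3 had 118400 and 148900 CPM. The female-specific RNA Xist reached 1150, 0.313 and 1089 CPM in control 1, 2 and 3 and 0.125 to 0.199 CPM in RARdn, so 2 controls and no RARdn library had the Xist level of female embryos.

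The upstream sequences of Sst, Hhex and Rbp4 are shown first, because these are the members whose levels set the RARdn libraries apart, and the Sstr2 site because it shares the motif of Sst. Sequences are from the RefSeq promoter table for GRCm38.p6, which held a window for 8 of the 9 genes and none for Sstr1. The Sst site lies before the RefSeq start and inside the longer GENCODE gene, and holds the cAMP response element through which the CREB factors are known to drive the gene. Each line runs 5′ to 3′ on the gene's own strand, with the element TGACGTCA or the homeodomain core ATTA in capitals. The 2 short sites cover chr16:23890874-23890903 (minus strand) and chr11:113619258-113619287 (plus strand). The upstream stretches cover chr19:37434591-37434809 for Hhex (plus strand) and chr19:38125322-38125571 for Rbp4 (minus strand), that of Hhex being cut where an annotated UTR begins.
Sst site: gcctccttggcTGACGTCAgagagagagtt
Sstr2 site: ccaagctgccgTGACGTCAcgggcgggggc
Hhex upstream: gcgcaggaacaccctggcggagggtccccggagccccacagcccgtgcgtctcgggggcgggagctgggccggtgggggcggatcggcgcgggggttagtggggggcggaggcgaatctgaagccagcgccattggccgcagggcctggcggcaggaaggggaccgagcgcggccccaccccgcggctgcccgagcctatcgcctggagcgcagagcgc
Rbp4 upstream: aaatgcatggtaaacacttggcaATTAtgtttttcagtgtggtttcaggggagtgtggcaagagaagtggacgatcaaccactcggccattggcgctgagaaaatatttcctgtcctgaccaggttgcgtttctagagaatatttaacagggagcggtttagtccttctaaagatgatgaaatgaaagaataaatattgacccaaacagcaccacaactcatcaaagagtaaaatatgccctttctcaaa

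In the windows of 300 bases, 250 before and 50 after each annotated start, TGACGTCA began 48 bases before the Sst start and 58 bases before the Sstr2 start. The element was found in 1.79% of 32817 such windows of all genes, both strands being searched, although its letters are the same on each. The homeodomain core TAAT or ATTA was found once in the Rbp4 stretch shown and not in the Hhex stretch. The full Sst window also held it once, outside the site printed, and the full Hhex window did not. Windows of Ghsr and Lepr held it too, and those of Crhr2, Sstr2 and Sstr3 did not. Of all windows, 58.0% held it. Retinoic acid receptors are known to bind direct repeats of AGGTCA. Repeats spaced by 1, 2 or 5 bases, on either strand, were in none of the 11 windows of the 8 genes that had one. They were in 0.0396%, 0.00914% and 0.00914% of all windows. The single half-site AGGTCA, which these repeats contain, was in the Ghsr window and in 16.3% of all windows. The stretches of Hhex and Rbp4 differed in base composition, with 77.2% and 40.8% G or C. These matches are letters in a window and say nothing of binding, and their absence only covers these bases.

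Sst, Hhex and Rbp4 were higher in each RARdn library than in any control, Crhr2 and Sstr3 were higher on average with overlapping groups, Lepr overlapped fully, and Sstr2 was lower in each RARdn library. Ghsr and Sstr1 were near the floor. Of the 8 members that passed the filter on low counts, 3 were higher without overlap (Sst, Hhex and Rbp4), 1 was lower without overlap (Sstr2) and 4 overlapped. Ghsr did not pass it, and had 3 counts in both control 1 and RARdn 3. Over the 19070 genes that passed the filter on low counts, 8.13% were higher and 10.2% lower without overlap. In edgeR's quasi-likelihood test over all genes, 3 of the 8 members tested were called higher at an adjusted p under 0.05 and none lower. Of all genes tested, 4.02% were called, 1.37% higher and 2.65% lower in RARdn. Nothing is read from the members' share, because the same comparison chose them. The median log2 fold change was 0.86 over the 8 members tested and 0.0005 over all genes.

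Sst encodes the peptide hormone that defines the delta cell (chr16:23889573-23890958, minus strand, 721 bases of exon). Its counts were 4504, 4395 and 4200 in the controls and 14534, 28359 and 11390 in the RARdn libraries, which is 117, 98.2 and 94.7 CPM against 303, 545 and 323 CPM. RARdn 2 stood highest and no RARdn library came near the control range. The means were 103 ± 11.8 and 391 ± 134 CPM (SD, n = 3), a 3.78-fold difference, and single RARdn libraries were 2.94-, 5.28- and 3.13-fold over the control mean.

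Hhex encodes the homeodomain factor of the delta cell programme (chr19:37434810-37440731, plus strand, 5056 bases of exon). It was counted 788, 1001 and 908 times in the controls and 2105, 2353 and 1020 times in RARdn. On the CPM scale this was 20.4, 22.4 and 20.5 against 43.9, 45.2 and 28.9. In CPM, RARdn 1 and 2 lay close together and RARdn 3 between them and the controls. This order depended on the scaling. With edgeR's TMM scaling the RARdn libraries were at 36.0, 46.4 and 33.6, so RARdn 1 was nearer to RARdn 3. The means were 21.1 ± 1.11 and 39.4 ± 9.06 CPM (SD, n = 3), a 1.87-fold difference, with a fitted log2 fold change of 0.86 (SE 0.13).

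Rbp4 encodes the plasma carrier of retinol (chr19:38116629-38125281, minus strand, 1343 bases of exon). Its counts were 4024, 3967 and 3941 in the controls and 11547, 9592 and 4006 in RARdn, or 104, 88.7 and 88.9 CPM against 241, 184 and 114 CPM. The order of the RARdn libraries differed from that of Sst: RARdn 1 was highest and RARdn 3 only 1.21-fold over the control mean. The means were 94.0 ± 8.97 and 180 ± 63.8 CPM (SD, n = 3), a 1.91-fold difference, with a fitted log2 fold change of 0.87 (SE 0.16).

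**Figure D1:**
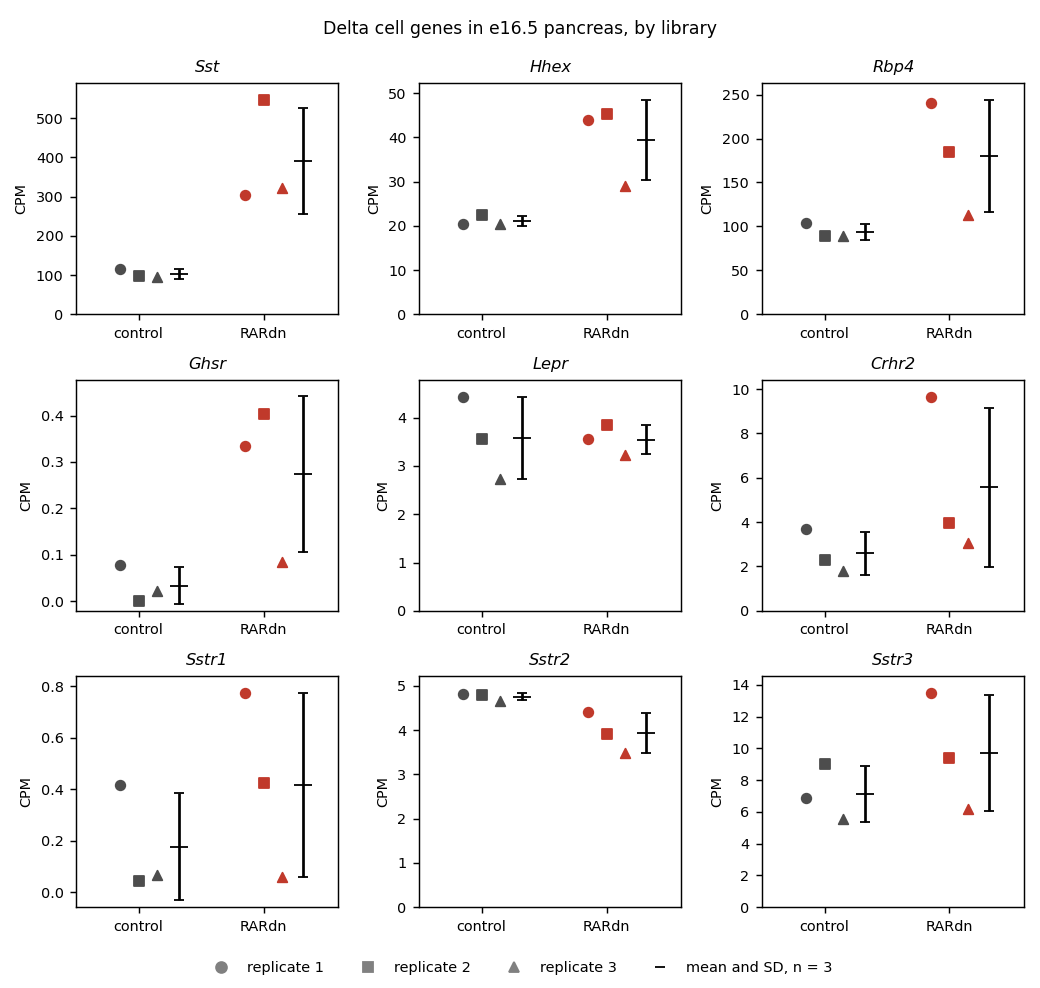
Level of each of the 9 genes in the 6 libraries, in CPM on linear axes, with 1 symbol per library and the mean with its SD (n = 3) beside each group. Sst, Hhex and Rbp4 sit above every control in all 3 RARdn libraries, Sstr2 sits below every control, and Lepr overlaps throughout.

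These 3 values also stood above every control in RARdn 3, where markers of liver were at their control level. The 10 hepatocyte genes summed to 23.5 to 28.4 CPM in the controls and to 1594, 287 and 24.4 CPM in RARdn 1, 2 and 3. All 10 were above every control in RARdn 1 and in RARdn 2, and none was in RARdn 3. In CPM, the order of Rbp4 over the RARdn libraries followed that of the hepatocyte sum. This too depended on the scaling. With TMM scaling Rbp4 was at 197, 189 and 132 in RARdn 1, 2 and 3, so RARdn 1 and 2 were nearly level. In ratio to the geometric mean of the pan-endocrine genes RARdn 2 was highest (3.88, 4.60 and 3.60). The albumin gene Alb, the most abundant of them in RARdn 1, was at 728, 134 and 2.75 CPM in the RARdn libraries. How much of Rbp4 or Hhex in RARdn 1 and 2 came with the liver markers was not tested.

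The other cell types differed less between the groups. The 20 pan-endocrine genes summed to 1395 to 1549 CPM in the controls, and to 2397, 1658 and 1574 CPM in RARdn. Endothelium also expresses Hhex, and its 9 markers summed to 530 to 661 CPM in controls, and to 521 to 720 CPM in RARdn. Mesenchymal markers were at 5117 to 6845 CPM in controls, and at 7584 to 10330 CPM in RARdn, without overlap, and their part in the levels of the 9 genes was not tested. Among the controls only control 2 lacked Xist, and its Sst, Hhex and Rbp4 levels were 98.2, 22.4 and 88.7 CPM. They were 117, 20.4 and 104 CPM in control 1 and 94.7, 20.5 and 88.9 CPM in control 3. As all RARdn libraries lacked Xist too, sex and genotype cannot be told apart by control 2 alone. With a term for Xist in the edgeR fit none of the members was called. The log2 fold changes were then 2.01 for Sst, 0.79 for Hhex and 0.97 for Rbp4.

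**Figure D2:**
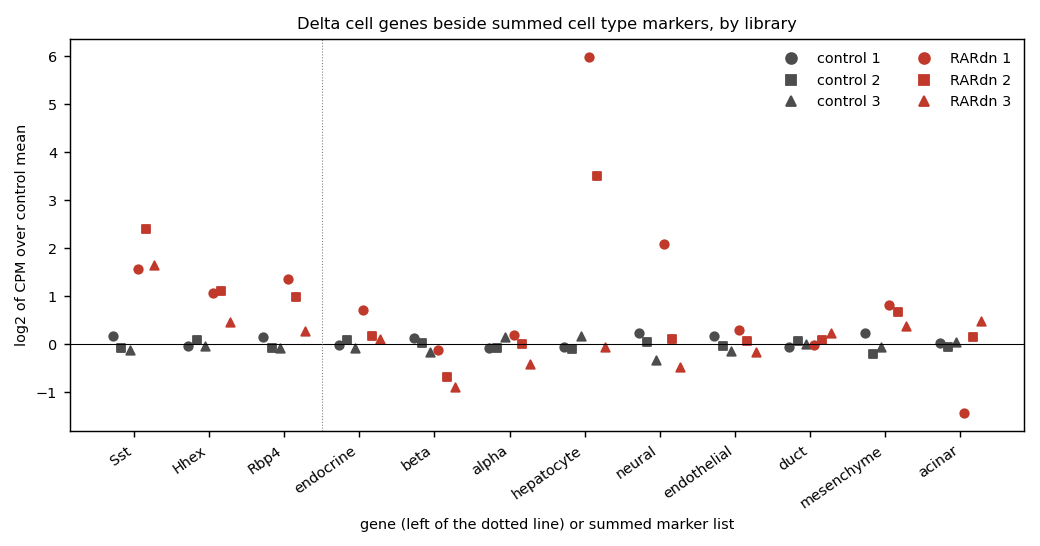
Log2 ratio of each library's CPM to the control mean for Sst, Hhex and Rbp4 (left of the dotted line) and for the summed markers of 9 cell types (right). Hepatocyte markers are far above the controls in RARdn 1 and 2 and within their range in RARdn 3, where Sst, Hhex and Rbp4 are still above the line.

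Measured against Sst within each library, Hhex and Rbp4 were lower in RARdn. Per 100 Sst counts, Hhex had 17.5, 22.8 and 21.6 counts in the controls and 14.5, 8.30 and 8.96 in RARdn. Rbp4 had 89.3, 90.3 and 93.8 in the controls and 79.5, 33.8 and 35.2 in RARdn. RARdn 1 lay below the lowest control in both ratios but nearer to the controls than RARdn 2 and 3, which lay at much lower and nearly equal values. The ratio between Hhex and Rbp4 themselves overlapped, with 5.11, 3.96 and 4.34 Rbp4 counts per Hhex count in controls and 5.49, 4.08 and 3.93 in RARdn.

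All 8 members other than Sst together made up 55.4%, 57.1% and 56.7% of the members' counts in the controls and 51.1%, 31.6% and 32.9% in RARdn. Per Sst count, 5 of the 8 (Hhex, Rbp4, Lepr, Sstr2 and Sstr3) were lower in every RARdn library than in any control, none was higher, and Ghsr, Crhr2 and Sstr1 overlapped. Of the 19069 other genes tested, 91.4% were likewise lower per Sst count in every RARdn library than in any control and 0.0839% were higher. Sst is the denominator of all these ratios, so its own difference enters each of them and the members' count is no result about the members.

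**Figure D3:**
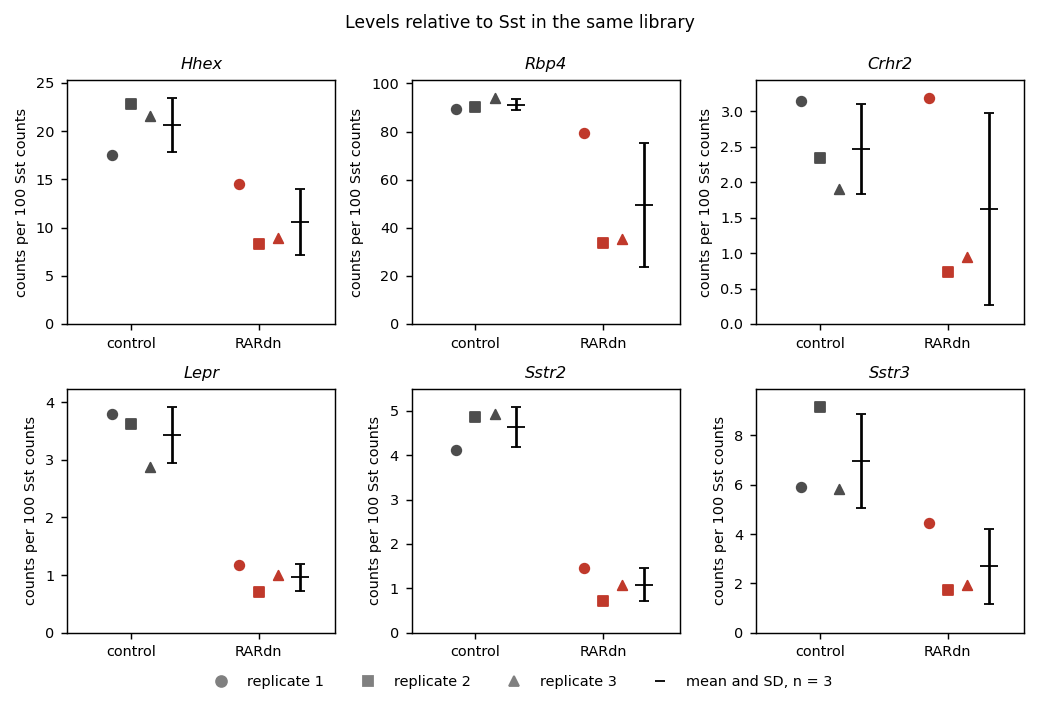
Counts of 6 members per 100 Sst counts in the same library, on linear axes, with 1 symbol per library and the mean with its SD (n = 3). The Hhex and Rbp4 ratios of RARdn 1 are below the lowest control and those of RARdn 2 and 3 well below that. Crhr2 of RARdn 1 lies just above the highest control.

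Set against the other endocrine genes instead, Sst, Hhex and Rbp4 were still high. The geometric mean of the 20 pan-endocrine genes was 38.1, 39.8 and 34.9 CPM in controls, but 62.2, 40.1 and 31.6 CPM in RARdn. In ratio to it, Sst was at 3.06, 2.47 and 2.71 in controls and 4.88, 13.6 and 10.2 in RARdn. Hhex was at 0.536, 0.562 and 0.587 against 0.707, 1.13 and 0.917 in the same ratio, and Rbp4 at 2.74, 2.23 and 2.55 against 3.88, 4.60 and 3.60. Neither ratio overlapped between the groups. Crhr2, which overlapped in CPM, was barely apart in this ratio (0.0966, 0.0579 and 0.0517 against 0.155, 0.0992 and 0.0971). Sstr2 was again lower without overlap. The share of all genes without overlap in this ratio was not computed, so nothing is read from these separations. Rescaling the edgeR fit to these endocrine genes moved the median of all genes to -0.15, left Sst called (log2 1.80) and left Hhex (0.71) and Rbp4 (0.68) not called.

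Receptors through which other hormones reach delta cells were less abundant. Crhr2, the receptor for urocortins (chr6:55090049-55133016), was counted 142, 103 and 80 times in controls and 463, 207 and 108 times in RARdn. The CPM values were 3.68, 2.30 and 1.80 against 9.66, 3.98 and 3.06, so RARdn 1 stood far above the others and RARdn 3 lay inside the control range. The fitted log2 fold change was 0.996 (SE 0.37) and fell to 0.58 without RARdn 1. RARdn 1 also had the highest sum of 9 neural markers, 253 CPM, where the other 5 libraries had 42.9 to 69.6 CPM; their part in the Crhr2 level was not tested.

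Lepr, the leptin receptor (chr4:101717404-101815352), did not separate the groups. It was counted 171, 159 and 121 times in controls and 170, 200 and 114 times in RARdn, which is 4.43, 3.55 and 2.73 CPM against 3.55, 3.84 and 3.23 CPM. The means were 3.57 ± 0.852 and 3.54 ± 0.306 CPM (SD, n = 3), and the fitted log2 fold change of -0.03 had an SE of 0.24. Ghsr, the ghrelin receptor (chr3:27371351-27378010), had 3, 0 and 1 counts in controls and 16, 21 and 3 in RARdn. Only RARdn 1 and 2 were above the floor of 3 counts, the gene did not pass the filter on low counts, and no fold is given.

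The somatostatin receptors, Gi-coupled receptors that lower cAMP, did not share a direction. Sstr2 (chr11:113619342-113626028) was counted 186, 214 and 207 times in controls and 211, 204 and 123 times in RARdn. On the CPM scale its controls were tightly grouped at 4.82, 4.78 and 4.67, and RARdn was at 4.40, 3.92 and 3.49. With TMM scaling the order of the RARdn libraries was reversed, at 3.61, 4.02 and 4.05. No RARdn library reached the lowest control, yet the difference was small, with means of 4.76 ± 0.0796 and 3.94 ± 0.457 CPM (SD, n = 3) and a log2 fold change of -0.30 (SE 0.17). Its upstream window holds the same cAMP response element as that of Sst, and the part of that element in the level of either gene was not tested.

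Sstr3 (chr15:78537008-78544685) was counted 266, 402 and 245 times in controls and 646, 490 and 218 times in RARdn. Its CPM values of 6.90, 8.99 and 5.53 against 13.5, 9.42 and 6.18 overlapped, and the log2 fold change was 0.37 (SE 0.22). Sstr1 (chr12:58211772-58214444) had 16, 2 and 3 counts in controls and 37, 22 and 2 in RARdn. At such counts 1 library sets the estimate: the log2 fold change of 1.19 (SE 0.89) became 2.74 without control 1, 0.71 without control 2 and 0.65 without RARdn 1.

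Levels of different genes were compared per kilobase of annotated exon. In CPM per kilobase the control means were 143 for Sst, 70.0 for Rbp4, 4.17 for Hhex, 2.22 for Sstr2, 1.65 for Sstr3, 0.508 for Crhr2, 0.507 for Lepr, 0.0859 for Sstr1 and 0.00754 for Ghsr. Sst, Rbp4 and Hhex took the first 3 places in that order in all 6 libraries, with no overlap between neighbours within either group. In the controls Crhr2 and Lepr could not be ordered, because their libraries overlapped. In RARdn the means were 542 for Sst, 134 for Rbp4, 7.79 for Hhex, 2.24 for Sstr3 and 1.84 for Sstr2, and the latter pair overlapped, as did Sstr2 with Crhr2 at 1.09. Lepr (0.503), Sstr1 (0.204) and Ghsr (0.0619) came last in RARdn in CPM per kilobase, and the libraries of Sstr1 and Ghsr overlapped. Compared within each library, Sstr2 was above Crhr2 and Sstr1 above Ghsr in all 6, although Sstr1 and Ghsr were near the floor. These per-kilobase levels assume that reads come from all annotated exons of a gene.

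Genes outside the 9 that delta cells are known to express did not share a direction. Of 13 such genes 12 were tested, none was called higher and 1 was called lower, with 8 log2 fold changes above 0 and 4 below and a median of 0.25. The gene called was Frzb, which encodes a secreted Wnt antagonist (chr2:80411970-80447625). It was at 5.03, 6.33 and 4.58 CPM in controls, and at 3.59, 2.58 and 1.84 CPM in RARdn, with every RARdn library below the lowest control (log2 -1.05, SE 0.21, edgeR adjusted p = 0.0350). The call was lost without control 1, 2 or 3 or RARdn 2 (edgeR adjusted p = 0.0759, 0.168, 0.0746 and 0.0936), with the Xist term (0.143) and with a filter of 1 CPM (0.0553), within a range of 0.00028 to 0.168 over all alternatives. The most abundant gene of the list, the fatty acid oxidation gene Hadh, was at 157 to 173 CPM in controls, and at 147 to 158 CPM in RARdn (log2 -0.13, edgeR adjusted p = 0.621).

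Of 19 ligands, sister receptors and partners of the 9 genes, 12 were tested, 1 was called higher and none lower, with 11 log2 fold changes above 0 and a median of 0.24. That gene was Stra6, the cell surface receptor that takes up retinol from the Rbp4 protein (chr9:58063788-58153996). It was at 9.10, 5.70 and 7.65 CPM in controls, and at 19.1, 39.3 and 101 CPM in RARdn, and RARdn 3, the highest of them, was the RARdn library with the least Rbp4. The log2 fold change was 2.93 (SE 0.63, edgeR adjusted p = 0.0418), and the adjusted p ranged from 0.00013 to 0.287 over the alternatives, with the call lost without control 1, 2 or 3 or RARdn 2, in limma-voom, with a filter of 1 CPM and with the Xist term. Ttr, the partner protein of Rbp4 in plasma and itself a transcript of islets and liver, was the most abundant of the list. It was at 386, 361 and 373 CPM in controls, and at 347, 310 and 363 CPM in RARdn (log2 -0.14, edgeR adjusted p = 0.659).

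Among the other ligands, the ghrelin gene Ghrl was at 9.28 to 10.9 CPM in controls and at 10.4, 17.6 and 7.74 CPM in RARdn (edgeR adjusted p = 0.705). It shares exon bases with genes on the opposite strand, whose reads may be counted with it. Ucn3, the urocortin that beta cells are known to release onto delta cells, was at 0.648 to 0.744 CPM in controls, and at 1.98, 1.13 and 0.993 CPM in RARdn without passing the test (log2 0.89, SE 0.30, edgeR adjusted p = 0.130). Ucn was listed at 0 in all 6 libraries. These ligands are named for their pairing with Ghsr and Crhr2 and were picked after their values were seen.

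**Figure D4:**
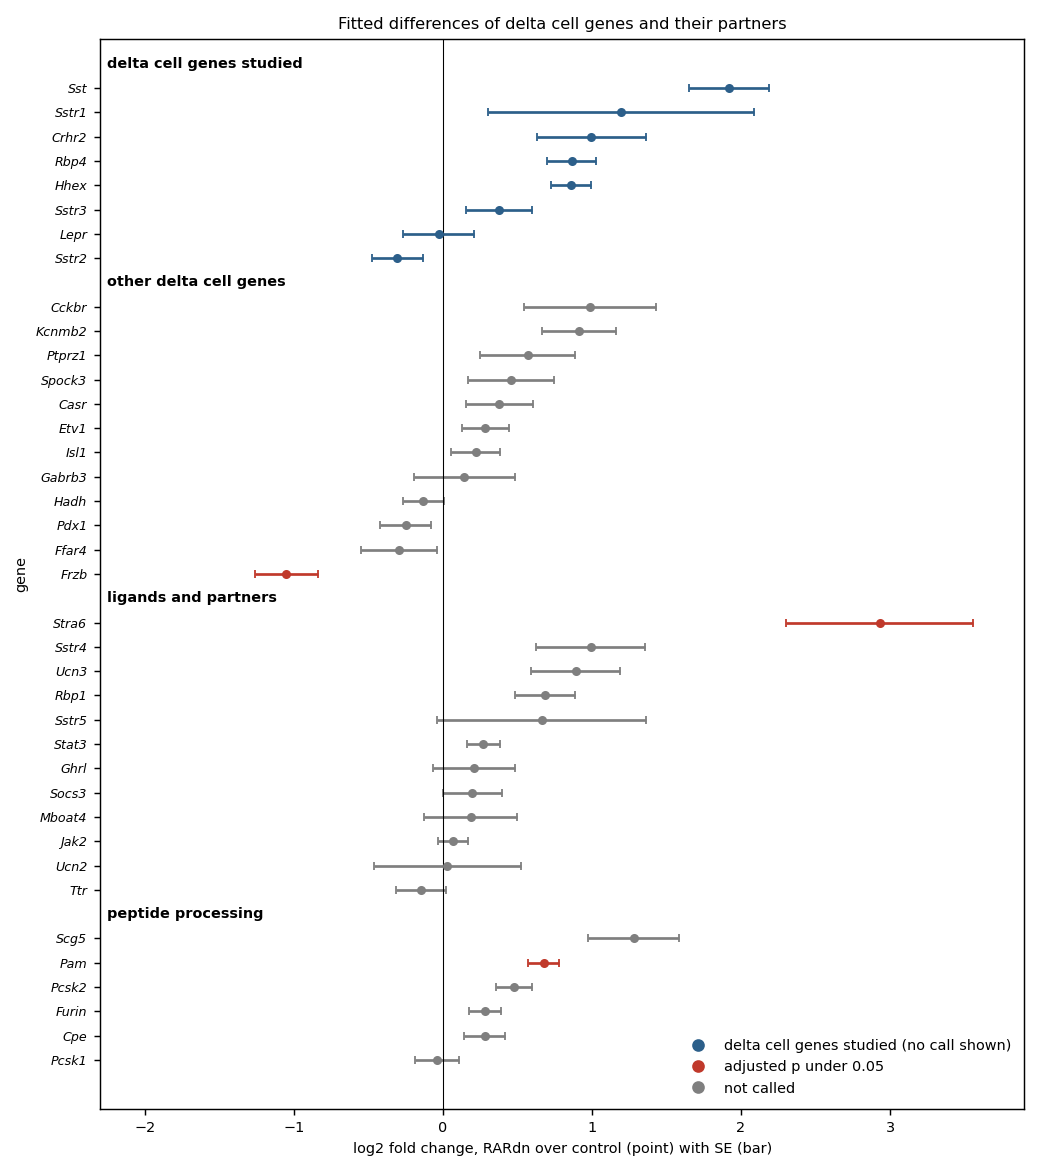
Log2 fold change of RARdn over control with its SE for the tested members and 3 related lists, fitted by edgeR over all genes. Frzb lies below 0, Stra6 and Pam lie above 0 in the colour of called genes, and the other genes of the lists, in grey, were not called.

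Of 6 peptide processing genes 1 was called higher and none lower, and the median log2 fold change was 0.38. Pam, whose enzyme amidates peptide hormones but not somatostatin, was at 126, 126 and 124 CPM in controls, and at 254, 206 and 163 CPM in RARdn (log2 0.68, SE 0.11, edgeR adjusted p = 0.0160). The call was lost without control 1, 2 or 3 or RARdn 2, with the Xist term (edgeR adjusted p = 0.243) and with scaling to the endocrine genes (log2 0.52, edgeR adjusted p = 0.220), within a range of 4.41e-08 to 0.243. Pam shares exon bases with another gene on its strand. Cpe, the carboxypeptidase that trims hormone precursors, was the most abundant at 361 to 384 CPM in controls, and at 428 to 510 CPM in RARdn (edgeR adjusted p = 0.279).

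Downstream of the somatostatin receptors no gene was called among 14 tested of 16 Gi subunits, potassium channels, adenylyl cyclases and their partners. DESeq2 called none either, and edgeR's unadjusted p was under 0.05 for 1 of them. The Gi subunit gene Gnai2 was the most abundant, at 244 to 266 CPM in controls, and at 257 to 349 CPM in RARdn (log2 0.22, edgeR adjusted p = 0.315). The protein kinase A regulatory subunit gene Prkar1a was at 204 to 216 CPM in controls, and at 211 to 304 CPM in RARdn (log2 0.18, edgeR adjusted p = 0.365).

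Hhex and Rbp4 start 690 kb apart on chromosome 19, so the genes around them were tested as well. Within 500 kb of their starts, 7 genes around Hhex and 8 around Rbp4 were tested, and 4 around Sst. None of the 19 was called by edgeR. Its unadjusted p was under 0.05 for 1 of them, and so was the adjusted p of DESeq2. That gene was Masp1, a complement protease gene near Sst, at 1.22 to 1.41 CPM in controls, and at 8.05, 3.54 and 1.45 CPM in RARdn (log2 1.58, SE 0.44, edgeR adjusted p = 0.0826), which was named after its value was seen. Ffar4, a fatty acid receptor gene also known from delta cells, lies nearest to Rbp4 on one side and had means of 4.70 ± 1.15 CPM in controls and 3.94 ± 0.98 CPM in RARdn (SD, n = 3, edgeR adjusted p = 0.536).

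The genes most like Sst over the 6 libraries were ranked by the mean absolute difference in log2(TMM-scaled CPM + 0.5), each gene centred on its control mean. The ranking covered 11128 genes with a mean of 5 TMM-scaled CPM or more, predicted genes with Gm or Rik symbols being left out. The nearest 5 were Plbd1 (0.255), the pseudogene Rpl3-ps1 (0.272), Fibin (0.288), Acpp (0.309) and Scara5 (0.324). Rbp4 came at rank 49 with 0.513, Hhex at rank 107 with 0.581 and Sstr3 at rank 2391 with 0.881. The other 5 members were below the level set for the ranking. That level was a mean over all 6 libraries, and Plbd1, Fibin, Acpp and Scara5 passed it only through RARdn libraries, their control means being under 5 CPM. The ranking therefore leans towards genes that were high where Sst was high and is a description of these libraries only, and reads of Rpl3-ps1 may be shared with near-identical copies.

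The calls of the 9 genes depended on which libraries were kept, and as these genes were chosen on the same values the calls are given as a description. Over 14 alternatives the log2 fold change lay between 1.59 and 2.19 for Sst, 0.71 and 0.96 for Hhex and 0.68 and 1.03 for Rbp4. Sst was called in 12 of them, Hhex in 9 and Rbp4 in 7. The count of members called fell from 3 to 1 without control 1 or control 3, to 0 without control 2 and to 2 without RARdn 2, while the number of genes called in all fell with it, to 100 of 19651 without control 2. Without RARdn 1, the library with the fewest acinar and the most liver transcripts, the log2 fold changes were 2.19 for Sst, 0.94 for Hhex and 0.78 for Rbp4.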

How the data were processed

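Whole pancreas RNA was sequenced in 3 control and 3 RARdn samples, grouped by the genotype in the labels. The authors deposited raw read counts per gene symbol, 1 table per sample. The submitters' processing notes name HISAT2, HTSeq, cutadapt, FastQC, DESeq2 and bedtools, and builds mm10 and GRCm38. The sources used here do not give versions, annotation or strand setting, so reads of antisense partners may be mixed. The 5 summary lines were left out. Of all reads, 8.99%, 8.88% and 7.6% lay outside genes in control 1, 2 and 3. In RARdn 1, 2 and 3 the share was lower, at 5.3%, 4.84% and 2.90%, without overlap. Genes with a count numbered 28328, 28517 and 27828 in the controls and 27147, 26437 and 23995 in RARdn, also without overlap. These differences run with genotype, and their part in the levels was not tested. The 9 genes, the lists and the naming rule were chosen with earlier results of these data known.

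CPM are counts scaled to a total of 1000000 in genes, and fold changes are RARdn over control. All genes were fitted with edgeR 4.0.16 in R 4.3.3 (filterByExpr, TMM, quasi-likelihood test, 2-sided, group as the only term) with Benjamini-Hochberg adjustment over the genes tested. SE is the size of the log2 fold change divided by the root of its F statistic. The test was tested on simulated data. Named besides the 9 were up to 4 called genes per list in order of p, filled to 2 with the most abundant, the 5 genes nearest to Sst and called neighbours; the list of Sst regulators is not reported gene by gene here. Positions and exon lengths are GENCODE M21 (GRCm38), which placed 54000 symbols once, and promoter windows are RefSeq GRCm38.p6. Alternatives were RLE or pan-endocrine scaling, DESeq2 1.42.0, limma-voom 3.58.1, other filters, a replicate block, an Xist term and leaving out each library.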

Additional observations from a re-analysis of the deposited data

How the results depend on the processing

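The log2 fold changes of 7 of the 8 tested members kept their sign under every alternative that gave a value. That of Lepr, -0.03 and never called, was above 0 in 3 of 14, at 0.15 without control 1, 0.13 without RARdn 1 and 0.0028 with no filter. Genes called in all (767) became 1946 with DESeq2, 2346 with no filter, 217 with at least 1 CPM in 3 libraries, 61 with the Xist term and 100 to 2980 when 1 library was left out. The split of higher against lower calls, 262 to 505, became 126 to 611 with pan-endocrine scaling and 973 to 973 with DESeq2. Members called (3) became 4 with no filter, Crhr2 being added, and 2 with the 1 CPM filter. Their number was 1 with pan-endocrine scaling, 0 with the Xist term and 0 to 4 when 1 library was left out. Other delta cell genes called (1) became 2 with DESeq2, 2 with no filter, 0 with the 1 CPM filter, 0 with the Xist term and 0 to 4 when 1 library was left out. Ligands and partners called (1) became 2 with DESeq2, 3 with no filter, 0 with the 1 CPM filter, with limma-voom and with the Xist term, and 0 to 3 when 1 library was left out. Regulators, processing and signalling genes called (2) became 4 with DESeq2, 4 with no filter, 1 with the 1 CPM filter, 0 with pan-endocrine scaling and with the Xist term, and 0 to 5 when 1 library was left out. Neighbours called (0) became 1 with DESeq2, 1 with no filter and 0 to 1 when 1 library was left out. Without RARdn 3 the counts were the highest or tied for the highest, and without control 2 they were among the lowest. The settings also differ in the number of genes and libraries they leave in the fit. The cause of these changes was not tested.

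Replicate numbers of the titles were not used to pair the samples in the main fit. Deviations of same-numbered libraries correlated at 0.013, -0.014 and 0.126, and those of differently numbered ones at -0.089 to 0.092. So few libraries cannot show whether embryos shared a litter or a day. With a replicate block 817 genes and 4 members were called, with Crhr2 as the addition, and counts were 1 for other delta cell genes, 2 for ligands and partners, 1 for regulators, processing and signalling genes and 0 for neighbours. Depth limits Ghsr and Sstr1, whose libraries hold 0 to 37 counts.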

Other observations

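Cort encodes cortistatin, a peptide that binds the same receptors as somatostatin. It was counted 5, 5 and 7 times in control 1, 2 and 3 and 80, 33 and 4 times in RARdn 1, 2 and 3, which is 0.130, 0.112 and 0.158 CPM against 1.67, 0.634 and 0.113 CPM. RARdn 1 and 2 thus stood above the controls and RARdn 3 did not. Crhbp, which encodes the binding protein of the CRH and urocortin peptides, had 2, 4 and 1 counts in controls and 17, 9 and 1 in RARdn, in the same order over the RARdn libraries. Neither gene passed the filter on low counts, and both were picked after their values were seen. Neural markers were highest in RARdn 1 (253 CPM, all 9 genes above every control) and were 64.2 CPM in RARdn 2, with 5 of 9 above every control, and 42.9 CPM in RARdn 3, with none.

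Sstr4, a further somatostatin receptor gene, was at 0.933, 1.12 and 0.564 CPM in controls, and at 1.92, 2.33 and 1.08 CPM in RARdn (log2 0.99, SE 0.36, edgeR adjusted p = 0.159). Sstr5 was at 0.0224 to 0.226 CPM in controls, and at 0.113 to 0.288 CPM in RARdn (edgeR adjusted p = 0.624). Kcnmb2, a potassium channel subunit gene of the delta cell list, was at 1.59 to 2.39 CPM in controls, and at 4.92, 3.38 and 2.64 CPM in RARdn, without overlap and without passing the test (log2 0.91, SE 0.25, edgeR adjusted p = 0.0801).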
